A study of Ambystoma mexicanum with 8 samples.

Results

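Among the transcripts of moderate abundance in axolotl jaw, 136 were higher in every regenerated jaw than in any of the 3 usable jaws taken at surgery. These 136 rows of the count table are described here. They were chosen from measured levels, given as CPM, the count of a row per 1000000 counts of its library. A row was taken when it held at least 10 counts in 3 or more of 7 libraries and when its mean over the 7 was from 15 to under 500 CPM. In addition, its lowest regenerated library had to lie above its highest pre-surgery library, and its regenerated mean had to be at least 1.5 times its pre-surgery mean. The table had 18035 rows, of which 4561 met the count minimum and 3003 of these fell in the abundance range. The raised transcripts were therefore 4.53% of the 3003 mid-abundance rows and 0.754% of the table. Since the contrast of regenerated with pre-surgery jaw chose these rows, every value of that contrast below is a description of the choice and no evidence for it.

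The regenerated group held jaw tissue that had regrown for 5 weeks, with 1 library for each of the numbers 2, 3, 6 and 11 in the sample titles, which are taken here as animals. The pre-surgery group held the jaw tissue removed at amputation, again with 1 library for each of these numbers. All animals were juvenile albino axolotls (Ambystoma mexicanum) of 5 cm from a laboratory colony, anesthetized for surgery. The labels name no other treatment, and the cut lay 5 mm from the midline. Poly(A) RNA was sequenced from whole homogenized tissue. More cells of a type and more RNA per cell therefore cannot be told apart in any value that follows. The other 7 libraries held 714809 to 2519291 counts, but that of pre-surgery jaw from animal 11 held 489 and was left out of the choice. The identifiers all began with ENSXETT, the files do not pair them with gene names, and none occurred in the RefSeq gene table of the axolotl. Only the identifiers were looked up, so this says nothing of the genes behind them. The species whose sequences the identifiers stand for is not given in the sources used here, and whether a row measures 1 axolotl transcript was not tested. The labelled tissue could not be checked against markers, and 2 raised transcripts are named by identifier while the others are described by their place in an order.

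The axolotl is a salamander that regrows amputated body parts through a blastema, a mass of proliferating cells that forms under the wound epidermis and later differentiates. Its lower jaw holds a rod of cartilage (Meckel's cartilage) sheathed by bone that forms directly in connective tissue and bears teeth, together with muscle, nerve, vessels and skin. A regrown jaw sampled after weeks of regeneration can contain newly formed tissue and cells that are still differentiating, and a bulk library averages over all of them.

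The raised transcripts stood at low to moderate levels in both groups. Their median level was 33.4 CPM in the regenerated library of animal 2, 39.4 CPM in animal 3, 47.2 CPM in animal 6 and 45.5 CPM in animal 11. In the pre-surgery libraries the median was 18.2 CPM in animal 2, 19.8 CPM in animal 3 and 21.4 CPM in animal 6. The medians of all mid-abundance rows were 31.0 to 40.02 CPM in the regenerated libraries and 31.6 to 34.97 CPM in the pre-surgery libraries. The raised transcripts thus lay below the typical mid-abundance row before surgery and above it after regrowth, a pattern that the required fold favours.

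**Figure D1:**
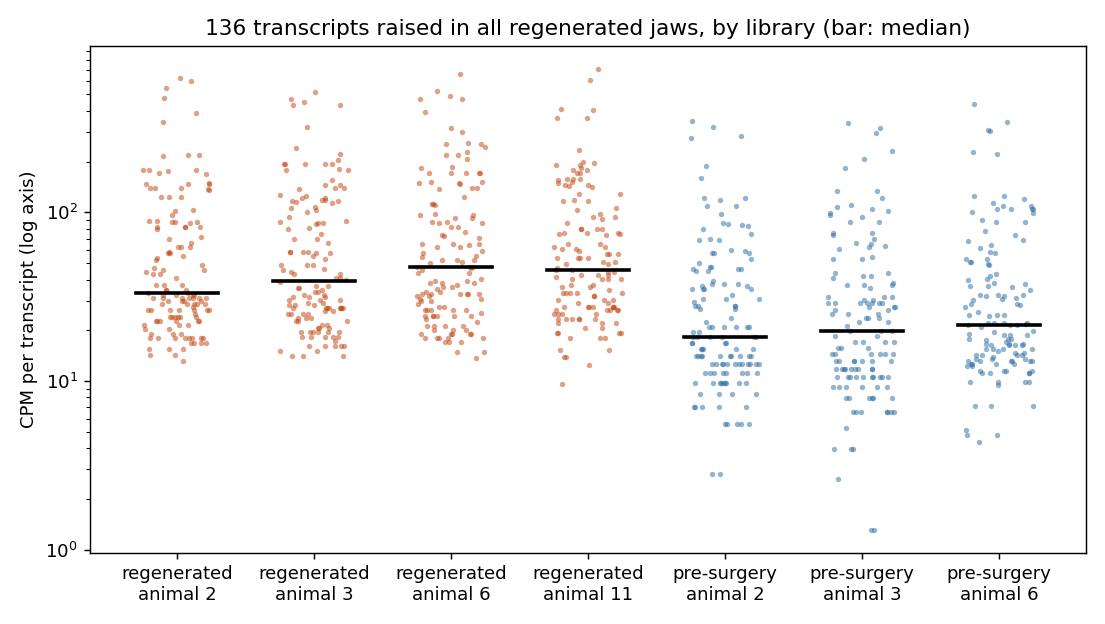
Each point is 1 of the 136 raised transcripts in 1 library, in CPM on a log axis, and each bar is the median of the library. The medians of the 4 regenerated libraries lie between 33.4 and 47.2 CPM and those of the 3 pre-surgery libraries between 18.2 and 21.4 CPM.

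The size of the difference was modest for most of them. The ratio of mean regenerated to mean pre-surgery CPM had a median of 1.91 over the 136, and it ranged from the 1.5 that the choice required to 9.21. It was under 2 for 76 transcripts, at least 2 for 60, at least 3 for 17 and at least 5 for 7. The median log2 ratio was 0.93 for the raised transcripts and 0.02 for all mid-abundance rows. The same rule turned round, for rows lower in all regenerated jaws, found 66 rows with a median log2 ratio of -0.93. Both medians are set in part by the required fold.

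**Figure D2:**
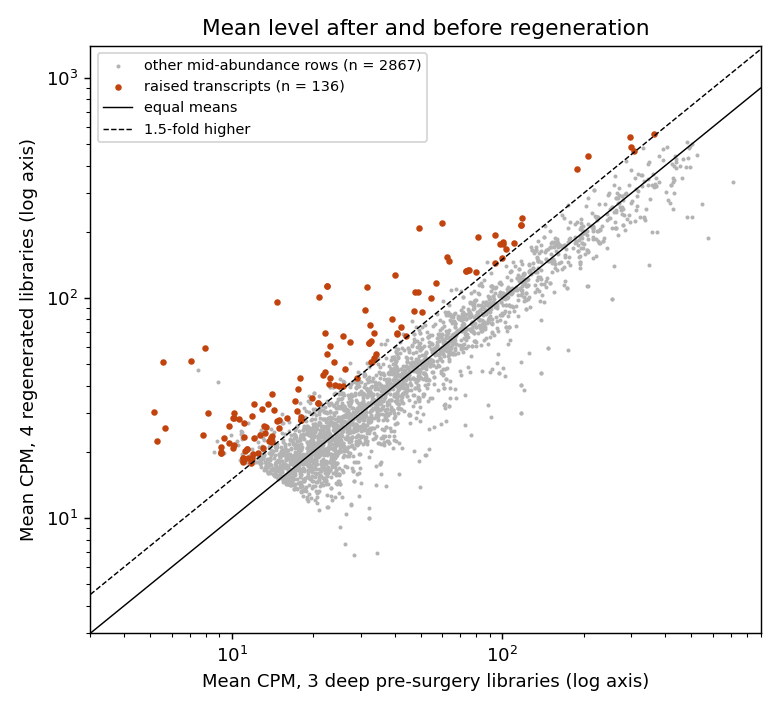
Each point is 1 row, with its mean over the 3 deep pre-surgery libraries on the x axis and over the 4 regenerated libraries on the y axis, both in CPM on log axes. The 136 raised transcripts (orange) lie on or above the dashed line of a 1.5-fold higher mean, and the other 2867 mid-abundance rows (grey) spread around the line of equal means.

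Separation of the groups alone was more common than the full rule. All 4 regenerated libraries lay above the 3 pre-surgery libraries in 205 of the 3003 mid-abundance rows (6.83%), and 69 of these missed the fold minimum. Over all 4561 rows tested the share was 6.1%. Among mid-abundance rows it was 5.80% at a mean of 15 to under 50 CPM, 8.38% from 50 to under 150 CPM and 10.04% from 150 to under 500 CPM. By the full rule, raised transcripts were 4.44% of rows with a mean of 15 to under 50 CPM (88 of 1984), 5.00% of rows from 50 to under 150 CPM (37 of 740) and 3.94% of rows from 150 to under 500 CPM (11 of 279). The median ratio of means was alike in these classes, at 1.93, 1.86 and 1.82.

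Some of the 136 rows repeated one another. Rows of at least 200 reads in total were put in 1 set when their 8 counts each differed by at most 10% or 3 reads. Rows of any total were put in 1 set when their counts were equal. This gave 122 sets, and 27 transcripts shared their set with another raised one. Rows of lower total that were alike but not equal, such as those in places 16 and 17 by gap ratio, stayed separate, so repetition is undercounted. The largest set had 3 transcripts, and 13 transcripts had exactly the same 8 counts as another. Whether such rows share reads was not tested, so how many separate measurements the 136 identifiers stand for is not known. With 1 row per set the median ratio of means was 1.95.

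The edges of the choice were close to the counting error. The transcript nearest to overlap had its lowest regenerated library at 93.9 CPM and its highest pre-surgery library at 93.6 CPM, while the nearest row left out for overlap had 18.0 CPM and 18.2 CPM. The smallest ratio of means taken was 1.503, and the largest left out among rows that met every other condition was 1.494. Within the same limit, the means over 7 libraries nearest to the lower edge were 15.01 CPM inside and 14.90 CPM outside the range. At the upper end the highest mean taken was 474 CPM, and the next row that met every other condition averaged 575 CPM with a ratio of means of 4.22.

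The counts behind the gap were small. In its lowest regenerated library a raised transcript had from 7 to 444 counts, with a median of 26, and in its highest pre-surgery library it had from 5 to 1100 counts, with a median of 35.5. All 7 libraries held at least 10 counts for 78 of the 136. The ratio of the lowest regenerated to the highest pre-surgery CPM, called the gap ratio here, had a median of 1.25 and was under 1.1 for 22 transcripts. For 19 of the 136, the 95% Poisson intervals of those libraries did not overlap, and the same was true of 0.666% of all mid-abundance rows. These intervals cover counting error only, and the choice used the same counts, so nothing is read from the comparison.

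Across all rows, edgeR's quasi-likelihood test called 22 of 4561 higher in regenerated jaw (0.482%, Benjamini-Hochberg adjusted p at most 0.05), and 18 of the raised transcripts were among them. The other 118 did not pass. All 18 lay within the first 36 places in the order of the gap ratio, where near-identical rows share a place, and the smallest ratio of means among them was 1.79. The median log2 fold change of the fit was 0.88 for the raised transcripts and 0.01 for all rows tested. With the animal number as a replicate block, 53 of the 136 passed against 1.67% of all rows higher, and the median log2 fold change was 0.97. The regenerated library of animal 11 had no pre-surgery partner in that fit, so the blocked contrast rested on animals 2, 3 and 6. When single libraries were left out, the median log2 fold change stayed of like size, which the choice of the rows on all 7 libraries favours. The count of calls changed more with some libraries left out than with others. Without the pre-surgery library of animal 2 it was 1 (0.0225% of all rows), without that of animal 3 it was 1 (0.0226%) and without that of animal 6 it was 2 (0.0997%), with median log2 fold changes of 0.90, 0.92 and 1.01. These fits had 2 pre-surgery libraries. Without the regenerated library of animal 11 it was 36 (1.1%), with a median of 0.96. Without that of animal 2 the count was 15 (0.387%), without that of animal 3 it was 22 (0.6%) and without that of animal 6 it was 12 (0.328%). The medians were 0.93, 0.92 and 0.87 in these fits.

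The widest gap was that of ENSXETT00000049389. It stood at 26.3 CPM in animal 2, 65.9 CPM in animal 3, 70.0 CPM in animal 6 and 42.8 CPM in animal 11 in regenerated jaw, against 5.60, 3.95 and 7.14 CPM in pre-surgery jaw of animals 2, 3 and 6. The lowest regenerated library was 3.68 times the highest pre-surgery one. Its means were 51.2 ± 20.5 CPM in regenerated jaw (SD, n = 4) and 5.56 ± 1.60 CPM in pre-surgery jaw (SD, n = 3), the largest ratio of means of the 136. The pre-surgery levels rested on 4, 3 and 18 counts. Within animals its measured rise was 16.7-fold in animal 3, 9.80-fold in animal 6 and 4.69-fold in animal 2, with counting error not separated. Its fitted log2 fold change was 3.08 (SE 0.42).

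The next 3 places showed different patterns among the regenerated jaws. The transcript in place 2 had 171, 177, 316 and 171 CPM in regenerated jaw of animals 2, 3, 6 and 11, against 46.2, 52.7 and 48.8 CPM in pre-surgery jaw of animals 2, 3 and 6. Its level before surgery was nearly even, and animal 6 stood apart after regrowth. Place 3 held a transcript with 87.1, 106, 81.7 and 128 CPM in regenerated jaw and 26.6, 17.1 and 19.4 CPM in pre-surgery jaw, in the same order of animals. There the highest regenerated library was that of animal 11, and no library stood far from its group. Place 4 held a transcript with 29.8, 33.5, 92.3 and 51.1 CPM in regenerated jaw and 9.79, 6.59 and 4.76 CPM in pre-surgery jaw. In animal 6 this was a 19.4-fold difference, in animal 3 5.09-fold and in animal 2 3.05-fold. The pre-surgery library of animal 6 was the lowest and its regenerated library the highest of their groups. The pre-surgery levels rested on 7, 5 and 12 counts in animals 2, 3 and 6, and counting error was not separated from these differences.

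In places 5 and 6 the animals again took different orders. In place 5 the levels were 88.3, 101, 49.9 and 144 CPM in regenerated jaw of animals 2, 3, 6 and 11, and 16.8, 10.5 and 16.7 CPM in pre-surgery jaw of animals 2, 3 and 6. Here animal 6 was the lowest regenerated library and animal 11 the highest. Place 6, shared by 2 near-identical rows, had 87.1, 121, 172 and 75.9 CPM in regenerated jaw and 21.0, 27.7 and 19.1 CPM in pre-surgery jaw, the values being those of the row with the lower identifier. There animal 6 was highest and animal 11 lowest after regrowth.

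The regenerated libraries were closest together in places 7 and 8 of the first 10. The transcript in place 7 had 31.0, 31.3, 32.9 and 37.3 CPM in regenerated jaw of animals 2, 3, 6 and 11, and 12.6, 10.5 and 13.1 CPM in pre-surgery jaw of animals 2, 3 and 6. Its difference within animals lay between 2.46-fold and 2.97-fold. Place 8 held a transcript as low, with 31.0, 27.0, 28.6 and 33.1 CPM in regenerated jaw and 5.60, 11.9 and 7.14 CPM in pre-surgery jaw. Its regenerated levels differed less than its pre-surgery ones. The pre-surgery levels rested on only 4, 9 and 18 counts in animals 2, 3 and 6. The regenerated levels rested on 26, 25, 27 and 24 counts in animals 2, 3, 6 and 11. How much of this contrast in spread is counting error was not tested. The transcript in place 9 was uneven after regrowth, with 140, 242, 298 and 197 CPM in regenerated jaw and 58.8, 63.2 and 57.2 CPM in pre-surgery jaw. As in place 2, it was even before surgery and highest in animal 6 after it. Place 10 held a transcript with 69.2, 58.4, 85.9 and 64.9 CPM in regenerated jaw and 28.0, 19.8 and 18.7 CPM in pre-surgery jaw, again with animal 6 highest after regrowth.

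**Figure D3:**
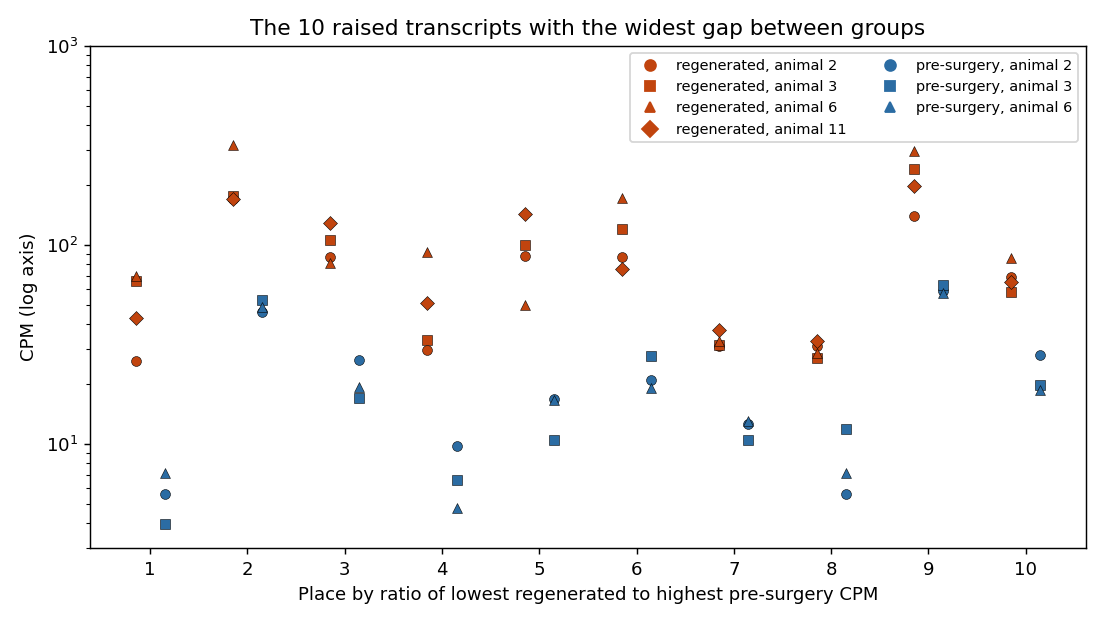
Levels in CPM (log axis) of the raised transcripts in the first 10 places by gap ratio, 1 point per library, with regenerated libraries in orange left of pre-surgery libraries in blue and 1 symbol per animal. Near-identical rows are drawn once. The gap narrows from 3.68 times in place 1 to 2.09 times in place 10.

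The raised transcript with the highest mean CPM over the 7 libraries was ENSXETT00000020214. It had 625 CPM in animal 2, 519 CPM in animal 3, 471 CPM in animal 6 and 613 CPM in animal 11 in regenerated jaw, against 319, 337 and 437 CPM in pre-surgery jaw of animals 2, 3 and 6. The means were 557 ± 74.5 CPM in regenerated jaw (SD, n = 4) and 364 ± 63.3 CPM in pre-surgery jaw (SD, n = 3). The groups did not overlap, but by a narrow margin that rested on animal 6. Within that animal the regenerated level was 1.08 times the pre-surgery level, against 1.96 times in animal 2 and 1.54 times in animal 3. The fitted log2 fold change was 0.60 (SE 0.16), and this transcript was not among the 18 that passed.

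The raised transcripts differed widely in how even their measured levels were among the regenerated jaws. The coefficient of variation, the SD as a percentage of the mean, had a median of 21.1% over the 4 regenerated libraries and 19.9% over the 3 pre-surgery libraries. For all mid-abundance rows these medians were 24.2% in regenerated jaw and 19.2% in pre-surgery jaw. A rule that keeps the groups apart also limits the spread within them, so the values are not compared further. The coefficient in regenerated jaw was under 10% for 12 raised transcripts and at least 40% for 10. Counting error is part of each coefficient, and how much of this range it makes up was not tested.

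The transcripts at the extremes of this range, picked out after their values were seen, show what it covers. The most even one had 178, 177, 182 and 179 CPM in regenerated jaw of animals 2, 3, 6 and 11, and 97.9, 98.8 and 104 CPM in pre-surgery jaw of animals 2, 3 and 6. Its coefficient of variation was 1.31% and 3.49% in these groups, its ratio of means was 1.79, and it was among the 18 that passed. The most uneven one had 40.6, 23.8, 43.5 and 128 CPM in regenerated jaw and 2.80, 1.32 and 19.8 CPM in pre-surgery jaw, with 2 counts and 1 count behind the lowest levels. Although its ratio of means was 7.39, it did not pass.

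The regenerated jaw of animal 6 most often held the highest level. It was the highest of the 4 regenerated libraries for 60 of the 136 raised transcripts (44.1%), against 564 of the 3003 mid-abundance rows (18.8%). The library of animal 11 was highest for 44 (32.4%), that of animal 3 for 18 (13.2%) and that of animal 2 for 14 (10.3%), against 49.8%, 17.1% and 14.3% of mid-abundance rows. With CPM on TMM effective library sizes, a scaling that balances the bulk of rows between libraries, animal 6 was highest for 61 raised transcripts (44.9%) and 23.7% of mid-abundance rows. Animal 11 was then highest for 24 (17.6%) and 26.4%, so its place in the order depended on the scaling and that of animal 6 did not. The members are not independent of one another, and no test was made of these shares.

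Animal 6 was also the highest of the 3 pre-surgery libraries for 64 of the raised transcripts (47.1%), against 33.1% of mid-abundance rows. The pre-surgery library of animal 6 was the deepest of all, with 2519291 counts, and whether depth had a part in this was not tested.

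Transcripts grouped by their highest regenerated library differed in level. The 60 with animal 6 highest had a median mean level of 47.9 CPM and a median ratio of means of 2.06, and 14 of the 18 that passed were among them. The 44 with animal 11 highest had a median mean level of 25.7 CPM and a median ratio of 1.94, and the other 4 that passed were among these. No other mid-abundance row passed. Of the 3003 mid-abundance rows, 564 had animal 6 and 1496 had animal 11 as the highest regenerated library. The same values chose the rows, so nothing is read from this split. The 18 with animal 3 highest had a median ratio of 1.81, and the 14 with animal 2 highest had 1.69. The highest library exceeded the next by a median of 1.23 times where it was that of animal 11 and 1.17 times where it was that of animal 6. It did so by 1.09 times where it was that of animal 3 and by 1.08 times where it was that of animal 2. An excess of 1.5 times or more over the next library was found for 9 transcripts in animal 11, for 5 in animal 6 and for 2 in animal 2. These excesses are of CPM on library totals and depend on that scaling. The TMM factor was 1.16 for the regenerated library of animal 11 and 0.916 to 0.978 for the other regenerated libraries. The excesses were not computed with TMM or over all mid-abundance rows.

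**Figure D4:**
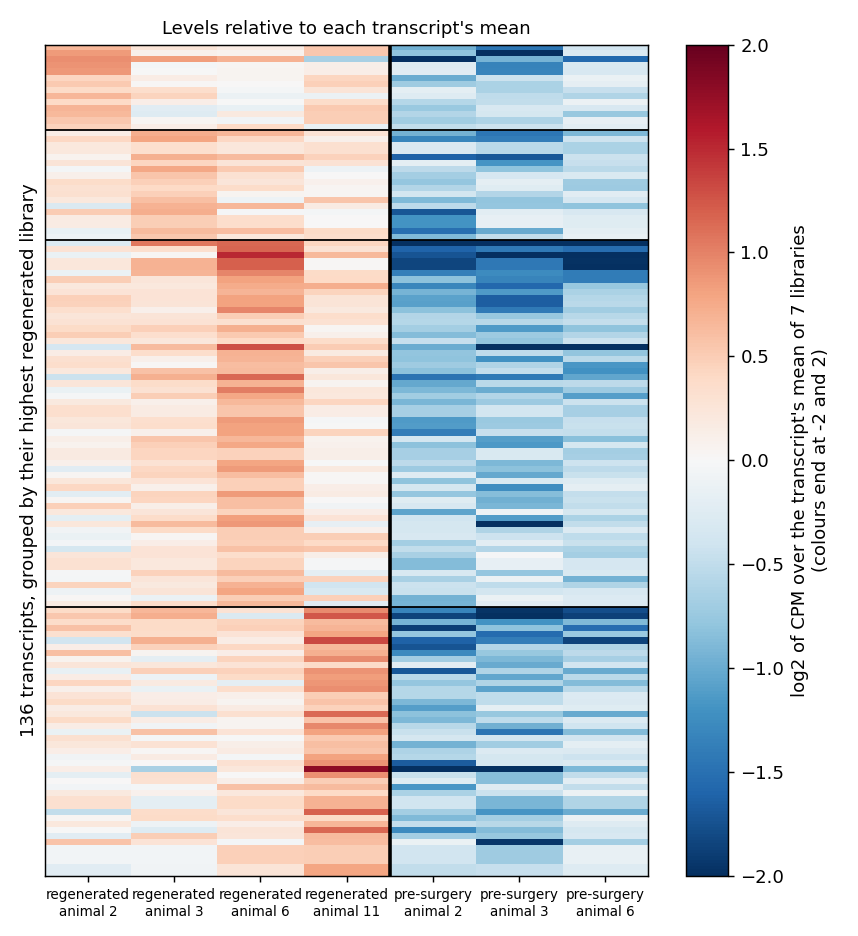
Each row is 1 of the 136 raised transcripts and each column 1 library, coloured by the log2 of its CPM over the transcript's mean of the 7 libraries. Rows are grouped, from the top, by the regenerated library in which they are highest (14 in animal 2, 18 in animal 3, 60 in animal 6 and 44 in animal 11), and the thick line parts regenerated from pre-surgery libraries.

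Within animals the differences were of like size. The ratio of regenerated to pre-surgery CPM had a median over the 136 of 1.98 in animal 2, 2.01 in animal 3 and 2.00 in animal 6. Over all mid-abundance rows the median was 0.906 in animal 2, 1.01 in animal 3 and 0.972 in animal 6. Single transcripts ranged from 1.11 to 14.5 in animal 2, from 1.01 to 26.2 in animal 3 and from 1.07 to 19.4 in animal 6. The highest ratios in animals 2 and 3 each rested on 2 pre-surgery counts, under the detection floor of 3 counts used here. That in animal 6 rested on 12. The ratio was at least 2 in 68 of the 136 in each animal, and in all 3 animals at once for 31. The cut of 2 lay near the median of each animal. These counts were not made over all mid-abundance rows, and counting error was not separated, so nothing is read from them. The largest of the 3 ratios was that of animal 3 for 57 transcripts, of animal 2 for 42 and of animal 6 for 37. This tally was not made over all mid-abundance rows either. The pre-surgery libraries of animals 2 and 3 were less deep than that of animal 6, and whether depth had a part was not tested.

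Summed over the 136, the raised transcripts took 1.05% of all counts in regenerated jaw of animal 2, 1.09% in animal 3, 1.25% in animal 6 and 1.13% in animal 11. In pre-surgery jaw they took 0.538% in animal 2, 0.550% in animal 3 and 0.620% in animal 6. Their sum was 11310 ± 868 CPM in regenerated jaw (SD, n = 4) and 5694 ± 443 CPM in pre-surgery jaw (SD, n = 3), a ratio of 1.99. Animal 6 had the highest sum in each group.

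The pre-surgery library of animal 11 was the only library that the choice did not use. It held 1 count on the 136 transcripts among its 489, or 0.204% (exact 95% binomial interval 0.00518% to 1.13%). At the shares of the other pre-surgery libraries 2.63 to 3.03 counts would fall on them, and at those of the regenerated libraries 5.15 to 6.12 counts. The interval held all 3 of the other pre-surgery shares and also 3 of the 4 regenerated shares. No difference between this library and the regenerated libraries of animals 2, 3 and 11 was thus detected, with the share of animal 11 at the edge of the interval. The share of the regenerated library of animal 6 lay above the interval. Since the rows were chosen for high regenerated levels, no difference is read from that.

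**Figure D5:**
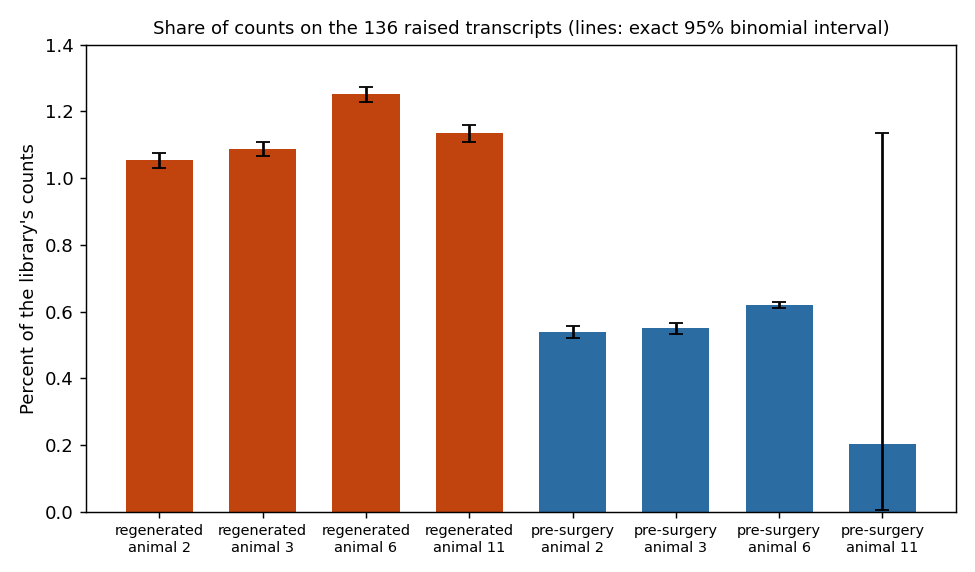
Bars give the percentage of each library's counts that fell on the 136 raised transcripts, and lines give exact 95% binomial intervals, which cover counting error only. The regenerated libraries (orange) lie at 1.05% to 1.25% and the deep pre-surgery libraries (blue) at 0.538% to 0.620%, and the interval of the near-empty pre-surgery library of animal 11 reaches 1.13%.

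The choice of rows moved with the scaling and the libraries. With CPM on TMM effective library sizes 136 rows again met the rule, and 122 of them were the same. Under that scaling 123 of the 136 kept their groups apart, and the other 13 overlapped. How many of all mid-abundance rows kept their groups apart under it was not counted, so nothing is read from this. Without the pre-surgery library of animal 6 the rule took 216 rows, 134 of them among the 136.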

How the data were processed

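The series comes with 1 table, deposited by the authors, of raw whole-number counts for each transcript identifier in each of 8 libraries, with no normalization. Libraries were made from poly(A) RNA with fragments of about 300 bp and read as single ends of 75 nt, per the labels' protocols. DESeq and DESeq2 are named in the submitters' processing notes. The aligner, the counter and the reference are not given in the sources used here. Samples were grouped by title, and the numbers in the titles were taken as the animals. A p-value therefore covers the spread among libraries of different animals only if the titles are read correctly, and otherwise the spread may be technical.

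CPM used each library's total count, with no correction for transcript length. A detection floor of 3 counts equals 1.19 to 4.20 CPM in the 7 deep libraries and 6135 CPM in the near-empty one. The fit across all rows used edgeR 4.0.16 in R 4.3.3 (quasi-likelihood test, TMM, at least 10 counts in 3 of the 7 deep libraries) and was tested on simulated data. The simulated rows all had the same spread beyond counting error and no animal effect. The simulation therefore does not measure how often the fit finds real changes in these data. The SE of a fold change is its size over the root of its F statistic. Alternatives were the replicate block, all 8 libraries, DESeq2 1.42.0, other scalings and filters, an adjusted p at most 0.01, 1 row per near-identical set and each library left out. Near-identical rows needed at least 200 reads in total unless their counts were equal. The block follows the titles. Deviations from group means over 4561 rows gave r = 0.064 for the pair of libraries numbered 2, 0.17 for those numbered 3 and 0.13 for those numbered 6, and -0.12 to 0.036 for unlike numbers.

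The members and lists were chosen with earlier results of these data known. The identifiers named are the transcript with the largest gap ratio and the one with the highest mean, and the others described by place are the first 10 by gap ratio. The planned lists of cell type markers hold gene names, with which the identifiers could not be paired, so the lists were not used.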

Additional observations from a re-analysis of the deposited data

Results flagged for a closer look

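The transcript in place 2 by gap ratio had 1 regenerated library far from the others, that of animal 6 at 316 CPM, against 171 to 177 CPM in animals 2, 3 and 11. Its distance to the nearest of them was 0.955 of the range of the 4, which is above Dixon's 95% critical value. It was the only one of 15 values tested in this way to pass, and chance flags about 5% of groups. Over all raised transcripts 7 of 136 (5.15%) passed, against 6.26% of mid-abundance rows.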

How the results depend on the processing

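The median fold change under no filter, filterByExpr or 2 of the block settings, the calls per near-identical set and the highest library per scaling were alternatives chosen after seeing the data. Of the 136 transcripts, 18 were called higher, against 0.482% of all rows. The count stayed within 1.5 times with DESeq2 size factors (21, against 0.57%) and filterByExpr (18, against 0.538%). It also did so with 1 row per near-identical set (17), for which no share of all rows was computed. It was 53 with the replicate block (1.67% of all rows), 39 with all 8 libraries (0.899%) and 79 with both (2.63%). DESeq2 gave 36 (0.899%), and 33 with the block (1.03%). Library totals gave 29 (0.745%), no filter gave 71 (0.704% of 18034 rows) and an adjusted p at most 0.01 gave 1 (0.0219%). Leaving out 1 library gave 1 to 36 (0.0225% to 1.1%). The median log2 fold change (0.88) was 0.97 with the replicate block, 0.90 with all 8 libraries, 0.97 with both, 0.89 in DESeq2, 0.96 in DESeq2 with the block, 0.84 with no filter and 0.93 with 1 row per near-identical set, and 0.87 to 1.01 without single libraries. All 136 kept a positive fold change in every fit run, as the choice of rows favours. The rule took 60 rows at a fold minimum of 2, and 146 to 216 without single libraries. With 1 row per near-identical set the summed level was 10181 CPM in regenerated jaw and 5096 CPM in pre-surgery jaw. ENSXETT00000049389 passed in 13 of 16 alternatives and failed without the pre-surgery library of animal 2, 3 or 6 (edgeR adjusted p = 0.11, 0.063 and 0.11). ENSXETT00000020214 passed in none of 16 (adjusted p from 0.065 to 0.52), with log2 fold changes of 0.49 to 0.76. The cause of these shifts was not tested.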
